A study of Mus musculus with 12 samples.

Results

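The subject is a set of 10 mouse genes that bring glucose into the cell and carry it along glycolysis: the transporter genes Slc2a1, Slc2a3 and Slc2a4, the hexokinase genes Hk1 and Hk2, the phosphofructokinase gene Pfkm, the phosphoglycerate mutase genes Pgam1 and Pgam2, and the enolase genes Eno1 and Eno3. They were chosen by name, with no measured value in the rule but with earlier results of these data known. They are 10 of the 20875 genes tested. Every non-control probe of these genes was taken, 15 in all, and 14 of them passed the filter on dim probes, so that all 10 genes were tested. Hk1 had 6 probes and each of the other genes had 1.

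RNA came from 3 groups of 4 samples each: mouse embryonic stem cells (mESC), cells at day 9 of differentiation and cells at day 14 of differentiation. Every sample is labelled as embryonic stem cells and carries the same culture description: plates coated with a crosslinked elastin-like polypeptide (ELP), 2 days of stem cell medium without LIF, the cytokine that holds mouse stem cells undifferentiated, and then Glasgow minimum essential medium with serum replacement. The sources used here do not give the day at which mESC were taken, or their line. The labels do not say that the 4 samples of a group were separate cultures, so the spread that p-values are based on may be a technical one. Per the design text, the question was how the cells changed as they formed cardiomyocytes.

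Glucose enters cells through facilitative transporters of the SLC2 family, among them GLUT1 (Slc2a1), found in most cells, the high-affinity GLUT3 (Slc2a3), and GLUT4 (Slc2a4), which insulin and contraction bring to the surface of heart, skeletal muscle and fat cells. Inside the cell, hexokinase traps glucose as its phosphate, phosphofructokinase commits it to glycolysis, and the mutase and enolase act late in the pathway, before pyruvate kinase. Several of these steps have a broadly expressed form and a form typical of striated muscle: Pgam2 beside Pgam1, and Eno3 (beta-enolase) beside Eno1 (alpha-enolase), while Pfkm is the muscle type of phosphofructokinase.

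The promoters of the genes called higher or lower here are shown where the table held them, with that of Pgam1 as the partner of Pgam2, because the mutase and enolase pairs changed most unequally. The RefSeq table of GRCm38.p6 held an entry for 8 of the 10 genes, Slc2a3 and Slc2a4 being without one. Each line gives the 250 bases before the transcription start, 5′ to 3′ on the gene's strand. Capitals mark matches, on either strand, to the E-box letters CANNTG, to ACGTG or GCGTG (the core of the hypoxia response element), to TATAAA, or to the consensus MEF2 site. Pgam2 lies on the minus strand at chr11:5803797-5804046, Eno3 on the plus strand at chr11:70656926-70657175, Pgam1 on the plus strand at chr19:41911621-41911870, Eno1 on the plus strand at chr4:150236974-150237223 (the downstream one of 3 listed starts) and at chr4:150236458-150236707 (the upstream one), and Hk2 on the minus strand at chr6:82774455-82774704. Hk1 lies on the minus strand at chr10:62379909-62380158 (the upstream one of its starts) and at chr10:62340422-62340671 (the downstream one). The window of the remaining Eno1 start overlaps the downstream one and held the same counts of matches.
Pgam2: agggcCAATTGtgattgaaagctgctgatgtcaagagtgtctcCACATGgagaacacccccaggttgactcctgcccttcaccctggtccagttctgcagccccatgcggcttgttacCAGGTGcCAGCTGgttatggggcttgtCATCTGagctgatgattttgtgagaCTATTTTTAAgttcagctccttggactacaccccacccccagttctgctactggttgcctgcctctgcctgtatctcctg
Eno3: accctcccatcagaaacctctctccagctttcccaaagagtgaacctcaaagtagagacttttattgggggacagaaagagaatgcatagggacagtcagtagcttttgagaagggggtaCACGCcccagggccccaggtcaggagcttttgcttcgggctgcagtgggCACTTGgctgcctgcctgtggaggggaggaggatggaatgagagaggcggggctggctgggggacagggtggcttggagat
Pgam1: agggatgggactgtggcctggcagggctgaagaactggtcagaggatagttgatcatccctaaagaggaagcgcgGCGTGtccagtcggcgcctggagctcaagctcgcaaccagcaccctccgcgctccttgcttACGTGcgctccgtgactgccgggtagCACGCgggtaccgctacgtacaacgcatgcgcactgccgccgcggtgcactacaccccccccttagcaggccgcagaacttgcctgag
Eno1 downstream start: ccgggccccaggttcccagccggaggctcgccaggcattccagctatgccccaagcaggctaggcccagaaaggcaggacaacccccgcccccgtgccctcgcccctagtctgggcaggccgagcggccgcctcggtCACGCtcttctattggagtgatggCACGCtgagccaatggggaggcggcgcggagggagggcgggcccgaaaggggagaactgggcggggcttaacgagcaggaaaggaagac
Eno1 upstream start: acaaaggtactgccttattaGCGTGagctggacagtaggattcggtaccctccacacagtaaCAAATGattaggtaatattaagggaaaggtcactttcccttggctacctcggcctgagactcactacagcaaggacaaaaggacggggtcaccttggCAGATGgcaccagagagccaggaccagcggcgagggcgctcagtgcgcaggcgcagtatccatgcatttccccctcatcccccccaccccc
Hk2: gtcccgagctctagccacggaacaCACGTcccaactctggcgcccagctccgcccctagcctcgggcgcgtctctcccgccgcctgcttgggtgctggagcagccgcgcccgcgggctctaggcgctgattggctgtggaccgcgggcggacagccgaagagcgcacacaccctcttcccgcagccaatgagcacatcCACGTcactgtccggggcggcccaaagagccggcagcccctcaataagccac
Hk1 upstream start: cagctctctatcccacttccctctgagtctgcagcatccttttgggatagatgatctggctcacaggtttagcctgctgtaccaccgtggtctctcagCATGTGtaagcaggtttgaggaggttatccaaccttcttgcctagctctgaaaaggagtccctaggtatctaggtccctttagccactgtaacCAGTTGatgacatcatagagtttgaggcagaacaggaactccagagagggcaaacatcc
Hk1 downstream start: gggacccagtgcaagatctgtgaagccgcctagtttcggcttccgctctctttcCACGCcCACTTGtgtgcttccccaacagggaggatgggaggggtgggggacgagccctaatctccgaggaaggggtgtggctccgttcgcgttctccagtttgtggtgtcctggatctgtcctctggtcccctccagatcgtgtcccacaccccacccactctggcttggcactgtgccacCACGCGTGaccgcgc
The Pgam2 window held 5 matches to CANNTG and 1 MEF2 site, whose first base lay 80 bases before the start. The Eno3 window held 1 match to CANNTG and 1 to GCGTG. The Pgam1 window held 1 match to ACGTG and 2 to GCGTG, the downstream Eno1 window 2 to GCGTG and the Hk2 window 2 to ACGTG, while the Pgam1, Hk2 and downstream Eno1 windows held no match to CANNTG. The upstream Eno1 window differed, with 2 matches to CANNTG and 1 to GCGTG, so that the count for Eno1 depends on the start taken. The upstream Hk1 window held 2 matches to CANNTG, and the downstream one held 1 to CANNTG and 3 to GCGTG. Of these 3, 2 overlap on opposite strands within the letters CACGCGTG. Matches to CANNTG thus stood in windows of genes that were higher and of genes that were lower. Of 32851 promoter windows of this length, 66.2% held CANNTG, 16.6% ACGTG, 28.2% GCGTG, 12.4% TATAAA and 2.92% the MEF2 site. No printed window held TATAAA. The letters CACGTG would count under both CANNTG and ACGTG, and none of the printed windows held them. The matches describe letters only.

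Levels are given as the log2 signal of a probe minus the 75th percentile of its array, so that 0 is the brightness of that percentile, and levels of different probes are not set against each other. Within a group, arrays correlated at 0.989 or above over genes. Since every slide, and every scan, held the arrays of 1 group, the effect of a slide and that of a group cannot be told apart. The labels were checked against marker genes. All 8 pluripotency markers were lower at both days than in mESC, and their summed signal, in units of the 75th percentile, was 615.0 to 661.8 in mESC, 17.2 to 25.6 at day 9 and 13.9 to 14.9 at day 14. All 10 cardiac muscle markers were higher at both days, with sums of 5.33 to 6.03, 222.7 to 434.9 and 223.4 to 295.8. Of 14 skeletal muscle markers tested, 4 were higher and 7 lower at day 9, and 5 were higher and 4 lower at day 14, with sums of 7.44 to 7.91, 10.3 to 25.4 and 14.9 to 19.4. The 4 skeletal muscle markers higher at day 9 were Acta1, Myh4, Myh8 and Tnnt3. Myog, Myf5, Myh1, Myh2 and Chrna1 were not well above background at day 9, while at day 14 only Myf5 was not. These cultures hold several cell types, and in RNA of whole cultures fewer cells of a type and less RNA per cell cannot be told apart. The part of cell composition in the results below was not tested.

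At day 9, Slc2a4, Pgam2 and Eno3 were higher than in mESC, Slc2a3, Hk1, Hk2 and Eno1 were lower, and the same 7 genes were called in the same directions at day 14. The largest difference was that of Pgam2, 20.5-fold higher at day 9 and 20.5-fold higher at day 14. Slc2a3 was 6.79-fold lower at day 9 and 13.7-fold lower at day 14. Slc2a1, Pfkm and Pgam1 were not called in either comparison. A gene was called where limma gave an adjusted p under 0.05, by Benjamini-Hochberg over all genes, with an absolute log2 change of at least 1. By that rule 3 of 10 genes were called higher and 4 lower at day 9, where 20% and 21% of all genes tested were called higher and lower, 41% in all. At day 14 the counts were again 3 higher and 4 lower, against 22.8% and 24.1% of all genes, 46.9% in all. By adjusted p alone, 9 of the 10 passed at day 9 and 10 at day 14, as did 83.4% and 85.1% of all genes. The median log2 change of the 10 genes was -0.42 at day 9 and -0.54 at day 14, and that of all genes -0.16 and -0.19. Both comparisons use the same 4 mESC samples.

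**Figure D1:**
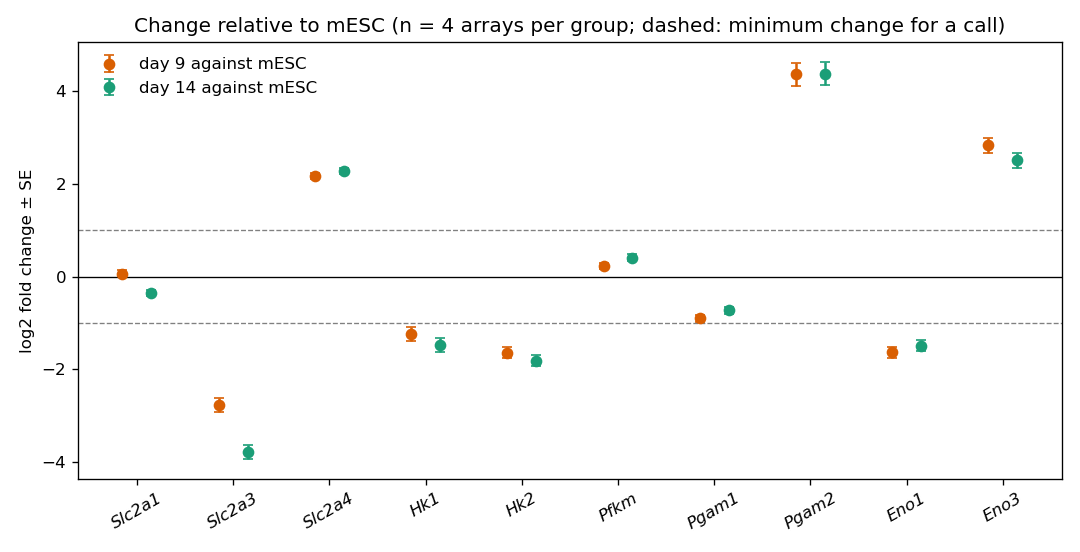
Log2 change of each of the 10 genes at day 9 (orange) and day 14 (green) against mESC, with standard errors (n = 4 arrays per group). Pgam2, Eno3 and Slc2a4 lie above the upper dashed line, Slc2a3, Hk1, Hk2 and Eno1 lie below the lower one, and Slc2a1, Pfkm and Pgam1 lie between them.

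Among the transporters, Slc2a3 had log2 levels of 7.06, 6.97, 7.05 and 6.92 in mESC, 3.83, 4.69, 4.43 and 4.00 at day 9, and 3.20, 3.17, 3.26 and 3.27 at day 14. The 3 groups did not overlap, and day 14 was lowest on every array. Slc2a3 was lower, with a log2 change of -2.76 ± 0.15 (SE) at day 9 (limma, adjusted p = 8.62e-09) and of -3.78 ± 0.15 at day 14 (adjusted p = 4.35e-10), n = 4 per group. Slc2a4 had levels of -1.12, -1.24, -1.04 and -1.23 in mESC, 0.95, 1.09, 1.05 and 0.93 at day 9, and 1.01, 1.16, 1.05 and 1.23 at day 14. All 8 arrays of the later days lay above all mESC arrays, while the days overlapped with each other. The change of Slc2a4 was 2.17 ± 0.07 at day 9 (limma, adjusted p = 5.12e-11) and 2.27 ± 0.07 at day 14 (adjusted p = 2.73e-11), or 4.49-fold and 4.82-fold higher. Its probe was printed in several spots per array, which were averaged.

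Slc2a1, the transporter of most cell types, had the smallest change of the 10 genes at day 9. Its levels were 5.67, 5.40, 5.60 and 5.41 in mESC, 5.65, 5.46, 5.54 and 5.66 at day 9, and 5.23, 5.16, 5.15 and 5.10 at day 14. Day 9 overlapped with mESC, and all day 14 arrays lay below both other groups. The day 9 change was 0.06 with a 95% interval of -0.09 to 0.22 (limma, adjusted p = 0.422), and the day 14 change was -0.36 ± 0.07 (adjusted p = 0.000613), short of the minimum size for a call. Quantile normalization turned the day 14 value to 0.13 and median scaling moved it to -0.59, so its direction depends on the scaling. The day 9 value ran from 0.004 to 0.40 over the alternatives (limma, adjusted p from 0.000318 to 0.965). It was called under none of them, but the upper end lies outside the interval above.

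**Figure D2:**
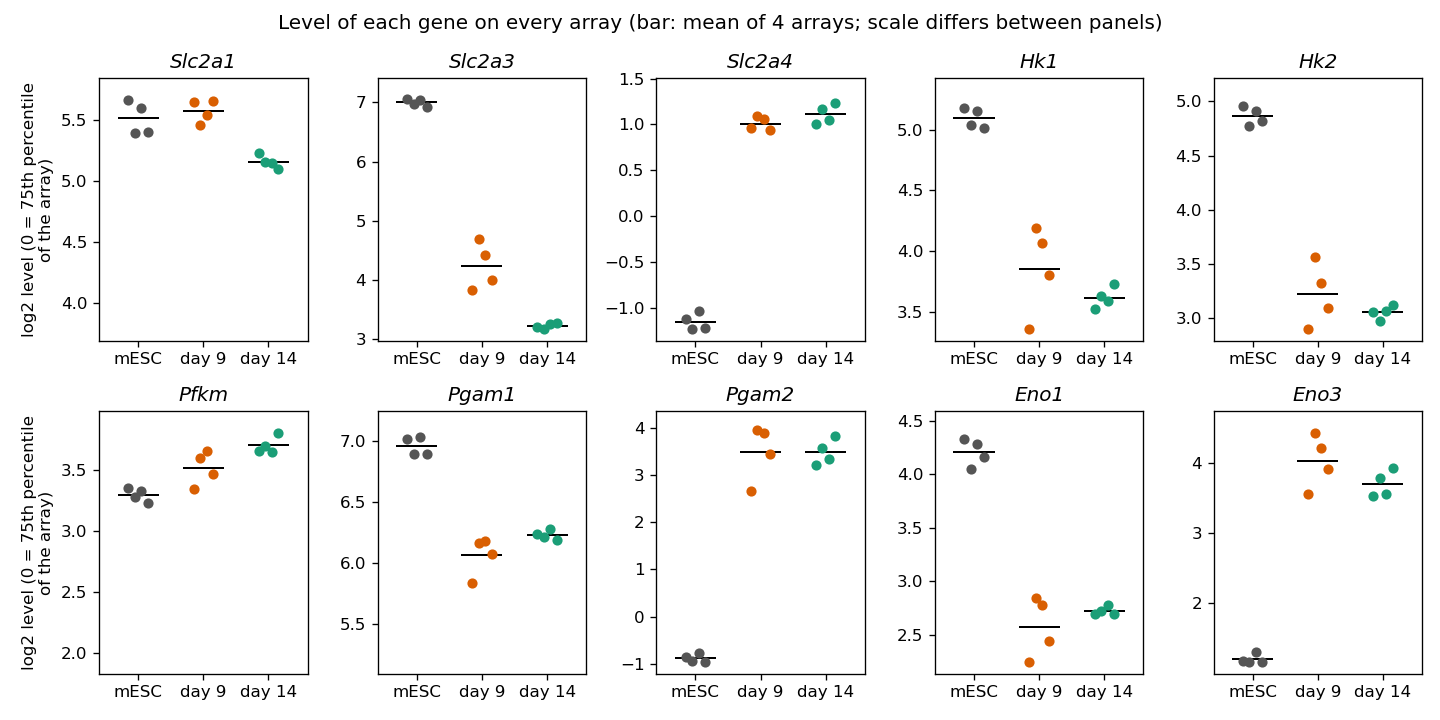
Log2 level of each gene on every array in mESC, at day 9 and at day 14, with the mean of the 4 arrays as a bar and 0 at the 75th percentile of the array. Each panel has its own scale, since levels of different probes are not comparable. The mESC arrays of Pgam2, Eno3 and Slc2a4 lie below all arrays of both days, and those of Slc2a3, Hk1, Hk2 and Eno1 above them.

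Both hexokinase genes were lower at both days. Hk2, the inducible hexokinase of muscle and other insulin-responsive tissue, had levels of 4.96, 4.77, 4.91 and 4.82 in mESC, 2.90, 3.56, 3.32 and 3.10 at day 9, and 3.06, 2.98, 3.07 and 3.12 at day 14. The day 9 arrays spread over and around the narrow range of day 14, and both lay below mESC. The change was -1.64 ± 0.12 at day 9 (limma, adjusted p = 9.62e-08) and -1.81 ± 0.12 at day 14 (adjusted p = 3.40e-08). Its promoter, shown above, was the only printed one with 2 matches to ACGTG. A Pfkm window that is not printed also counted 2. Those lay 136 and 135 bases before the start, as both strands of the same CACGTG.

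Hk1, the hexokinase of most tissues, was read by the brightest of its probes. That probe had levels of 5.18, 5.04, 5.15 and 5.02 in mESC, 3.35, 4.19, 4.06 and 3.80 at day 9, and 3.52, 3.63, 3.59 and 3.73 at day 14. No array of either day reached the mESC range. The change was -1.24 ± 0.15 at day 9 (limma, adjusted p = 9.23e-06) and -1.48 ± 0.15 at day 14 (adjusted p = 1.75e-06), and quantile normalization gave -0.93 at day 9, which ends the call there. All 5 tested Hk1 probes were called lower at both days in a fit over all probes, which called 40.4% of probes at day 9 and 46.5% at day 14. Their changes ranged from -1.60 to -1.24 at day 9 and from -1.92 to -1.47 at day 14. One of these 5 was well above background on 4 mESC arrays but on 1 array at each later day, and the sixth probe was above background on no array and was not tested.

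Pfkm, the muscle type of phosphofructokinase, changed little. It had levels of 3.35, 3.28, 3.32 and 3.22 in mESC, 3.34, 3.60, 3.65 and 3.47 at day 9, and 3.66, 3.69, 3.65 and 3.80 at day 14. The lowest day 9 array lay within the mESC range, and all day 14 arrays lay above it. The change of 0.22 ± 0.07 at day 9 (limma, adjusted p = 0.0101) and of 0.41 ± 0.07 at day 14 (adjusted p = 0.000155) was under the size for a call. The day 14 value was 0.75 under quantile normalization and 0.18 under median scaling.

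Pgam2, the muscle form of phosphoglycerate mutase, had levels of -0.85, -0.94, -0.76 and -0.95 in mESC, 2.66, 3.95, 3.89 and 3.43 at day 9, and 3.20, 3.58, 3.35 and 3.82 at day 14. Every array of both days was far above mESC, and day 9 replicate 1 was the lowest of them. On the linear scale its signal averaged 11.8 ± 4.22 times the 75th percentile at day 9 and 0.546 ± 0.0351 times in mESC (SD, n = 4 each). The change was 4.35 ± 0.25 at day 9 (limma, adjusted p = 1.21e-08) and 4.36 ± 0.25 at day 14 (adjusted p = 9.83e-09). Of all genes tested, 5.26% differed by more at day 9 and 6.23% at day 14.

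Pgam1, the mutase of most other tissues, had levels of 7.01, 6.89, 7.03 and 6.89 in mESC, 5.83, 6.16, 6.18 and 6.07 at day 9, and 6.24, 6.21, 6.28 and 6.19 at day 14. All arrays of both days lay below all mESC arrays, and all day 14 arrays lay above all day 9 arrays. The change was -0.90 ± 0.07 at day 9 (limma, adjusted p = 3.43e-07) and -0.73 ± 0.07 at day 14 (adjusted p = 2.03e-06), short of a call, and -0.43 and -0.11 under quantile normalization. The mouse genome holds near-identical copies of Pgam1 and of Eno1, so signal of their probes may be shared with a copy.

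Eno3, the beta-enolase of muscle, had levels of 1.18, 1.17, 1.30 and 1.16 in mESC, 3.56, 4.42, 4.22 and 3.92 at day 9, and 3.53, 3.78, 3.56 and 3.93 at day 14. The days overlapped with each other and lay wholly above mESC. The change was 2.83 ± 0.16 at day 9 (limma, adjusted p = 1.24e-08) and 2.50 ± 0.16 at day 14 (adjusted p = 3.15e-08), or 7.10-fold and 5.65-fold higher. Eno1, the alpha-enolase, had levels of 4.33, 4.05, 4.29 and 4.16 in mESC, 2.24, 2.84, 2.78 and 2.44 at day 9, and 2.69, 2.72, 2.78 and 2.69 at day 14. It moved opposite to Eno3, with every array of both days below mESC. The change was -1.63 ± 0.12 at day 9 (limma, adjusted p = 1.33e-07) and -1.48 ± 0.12 at day 14 (adjusted p = 2.72e-07), or 3.10-fold and 2.80-fold lower.

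Whether related genes changed unequally was tested on the log2 ratio of 2 genes on the same array, fitted together with all genes. A difference of changes above 0 means that the first gene rose more, or fell less, than the second. The ratio of Pgam2 to Pgam1, set to a mean of 0 in mESC, was -0.03, 0.00, 0.04 and -0.01 in mESC, 4.66, 5.62, 5.54 and 5.19 at day 9, and 4.80, 5.20, 4.90 and 5.46 at day 14. Pgam2 thus changed more than Pgam1 by 5.25 ± 0.20 at day 9 (limma, adjusted p = 3.54e-10) and by 5.09 ± 0.20 at day 14 (adjusted p = 3.75e-10). The ratio of Eno3 to Eno1 was -0.15, 0.12, 0.02 and 0.01 in mESC, 4.32, 4.59, 4.44 and 4.48 at day 9, and 3.84, 4.07, 3.78 and 4.24 at day 14. Its difference of changes was 4.46 ± 0.10 at day 9 (limma, adjusted p = 5.36e-12) and 3.98 ± 0.10 at day 14 (adjusted p = 1.06e-11). Neither ratio of any later array came near the mESC range.

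Slc2a1 and Slc2a3 also parted, since Slc2a3 was lower and Slc2a1 was not called. Their difference of changes was 2.83 ± 0.19 at day 9 (limma, adjusted p = 4.80e-08) and 3.42 ± 0.19 at day 14 (adjusted p = 7.04e-09). The hexokinase genes moved nearly together: Hk1 was lower by less than Hk2, by 0.40 ± 0.07 at day 9 (limma, adjusted p = 0.00014) and 0.33 ± 0.07 at day 14 (adjusted p = 0.000609). With the mean over Hk1's probes in place of the brightest, the day 14 difference was 0.13 (adjusted p = 0.161) and no longer passed.

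**Figure D3:**
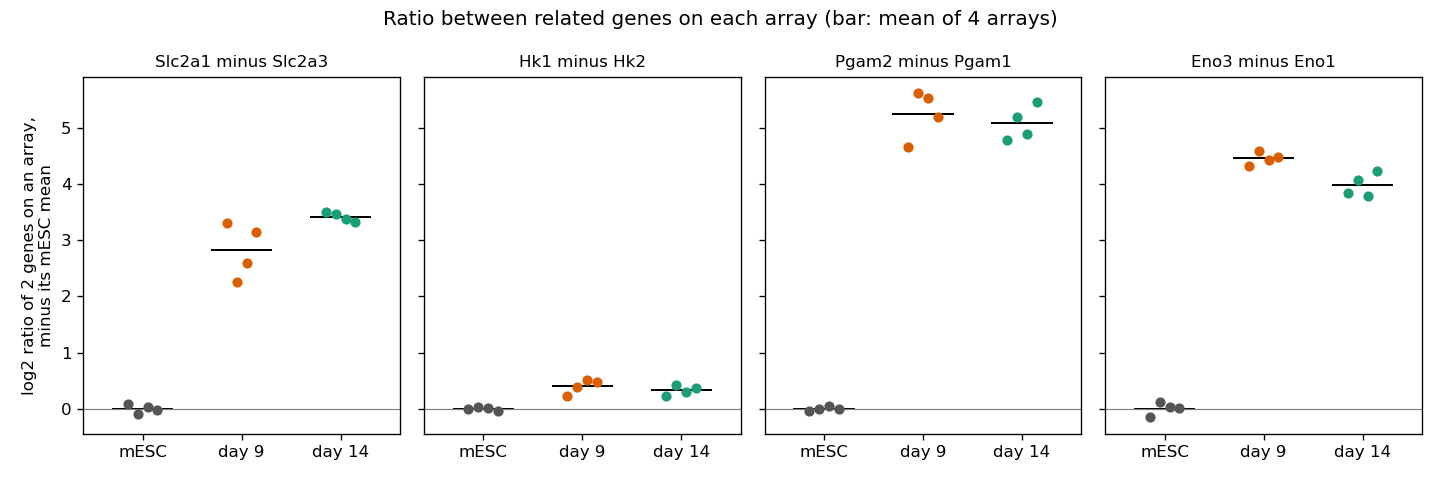
Log2 ratio of 2 related genes on each array, minus its mean in mESC, for the transporter, hexokinase, mutase and enolase pairs in mESC, at day 9 and at day 14 (bars: mean of 4 arrays). The mutase and enolase ratios lie at 3.78 or above on all arrays of both days, and the hexokinase ratio lies at 0.51 or below.

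Between the days, Slc2a3 was the 1 gene of the 10 that was called, lower at day 14 with a log2 change of -1.01 ± 0.15 (limma, adjusted p = 0.000144), or 2.02-fold. No gene of the set was called higher by limma, while 2 were higher at an unadjusted p under 0.05. Of all genes tested 10.2% were called higher at day 14 and 3.61% lower, 13.8% in all. The Slc2a3 change lies at the minimum size for a call. It was -0.91 under quantile normalization, and -0.86, -0.95 and -0.99 without day 9 replicate 2, day 9 replicate 3 and day 14 replicate 2, each of which ends the call. Slc2a1 differed by -0.42 ± 0.07 (adjusted p = 0.000361) and Pfkm by 0.18 ± 0.07 (adjusted p = 0.0344), both under the minimum size, so that 3 of the 10 passed on adjusted p alone, as did 63.3% of all genes. Of the 5 Hk1 probes, 0 were called between the days by limma, and 0 at an unadjusted p under 0.05, where 12.8% of all probes were called. For Pgam2 the difference was 0.01 with a 95% interval of -0.54 to 0.55, and for Hk2 it was -0.16 with an interval of -0.42 to 0.10. Slc2a1, Slc2a3 and Pgam1 were the 3 genes whose arrays did not overlap between the days, where 57.4% of all genes did not. Against mESC, 8 of the 10 did not overlap at day 9 and all 10 at day 14, with 78.6% and 83.9% of all genes.

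Of the gene pairs, the enolases differed between the days, Eno3 over Eno1 being lower at day 14 by a difference of changes of -0.47 ± 0.10 (limma, adjusted p = 0.00193). Slc2a1 over Slc2a3 was higher at day 14 by 0.59 ± 0.19 (adjusted p = 0.0168), although normexp background correction gave 0.54 (adjusted p = 0.0683). For Pgam2 over Pgam1 the value was -0.16 with a 95% interval of -0.61 to 0.28.

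At day 9, 7 of the 10 genes had a larger SD than the median gene, Slc2a1, Slc2a4 and Pfkm being the exceptions. The median SD of the 10 genes was 0.29 at day 9 on the log2 scale, against 0.14 over all genes, while in mESC both were 0.08 and at day 14 they were 0.07 and 0.09. Day 9 replicate 1 had the lowest level of 8 of the 10 genes, and 29.1% of all genes were lowest there. Replicate 2 had the highest level of 7 of them, against 25.8% of all genes. Genes that were lower than in mESC, such as Hk1 and Eno1, and genes that were higher, such as Pgam2 and Eno3, shared this order. The summed cardiac muscle markers were 223, 435, 411 and 309 on day 9 replicates 1 to 4, and the skeletal muscle markers 10.3, 25.4, 22.0 and 13.7. The sums of hepatocyte and visceral endoderm markers, 39.1, 66.0, 51.6 and 44.9, ranked the replicates in the same order, as did adipocyte markers. Fibroblast markers, at 417, 236, 302 and 399, ranked them in the reverse order, as did erythroid and macrophage markers. Smooth muscle, neuron, endothelium and pluripotency markers followed neither order. The part of these marker levels in the order of the day 9 samples was not tested.

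**Figure D4:**
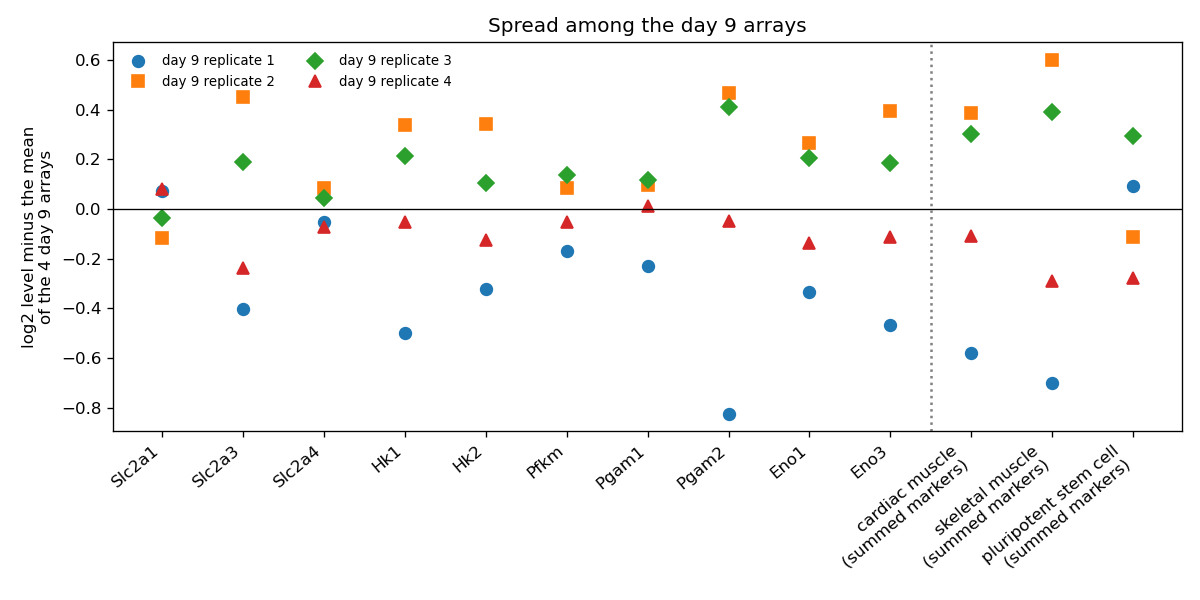
Log2 level of each gene on the 4 day 9 arrays minus the mean of those arrays, with the summed cardiac muscle, skeletal muscle and pluripotency markers on the right. Replicate 1 lies below 0 for 9 of the 10 genes and for both muscle marker sums, and replicates 2 and 3 lie above 0 for all genes but Slc2a1. Of the 14 skeletal muscle markers summed, 4 were higher and 7 lower at day 9 than in mESC.

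Other enzymes of glycolysis were read from a list of 20 genes, of which 19 were tested. At day 9, 2 of the 19 were higher and 6 lower (41% of all genes called), and the median change was -0.93. At day 14, 2 were higher and 3 lower (46.9% of all genes called), and the median was -0.36. Hkdc1, a hexokinase-like gene, was higher at day 9 by 2.06 ± 0.14 on the log2 scale. Pfkp, the platelet type of phosphofructokinase, was lower, with log2 changes of -3.15 ± 0.12 at day 9 and -2.80 ± 0.12 at day 14, while a second probe of it gave -0.53 and 0.07 and was not called. Pklr, the pyruvate kinase of liver and red cells, was at least 2.36-fold lower at day 9. At day 14 its log2 change of -0.54 ± 0.18 was under the size for a call. Adpgk, an ADP-dependent glucokinase, was lower, with a log2 change of -1.85 ± 0.05 at day 14. Hk3, the hexokinase of blood cells, was below background in mESC and at day 9, and at day 14 it was at least 35.2-fold higher than in mESC and at least 46.2-fold higher than at day 9. Such bounds set the mean of the brighter group against the dimmest signal well above background on each array of the other. Macrophage markers moved with it: 10 of 10 were higher at day 14 than at day 9, with sums of 1.62 to 1.91 in mESC, 0.558 to 0.717 at day 9 and 22.5 to 28.1 at day 14. Adgre1, C1qa, C1qc and Lyz2 were not above background in mESC or at day 9, nor were Csf1r and Tyrobp in mESC. Their part in the Hk3 result was not tested. Between the days, 4 of the 19 enzymes were higher at day 14 and 1 lower, where 10.2% and 3.61% of all genes were called. The lower one was Hkdc1 at -1.24 ± 0.14.

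**Figure D5:**
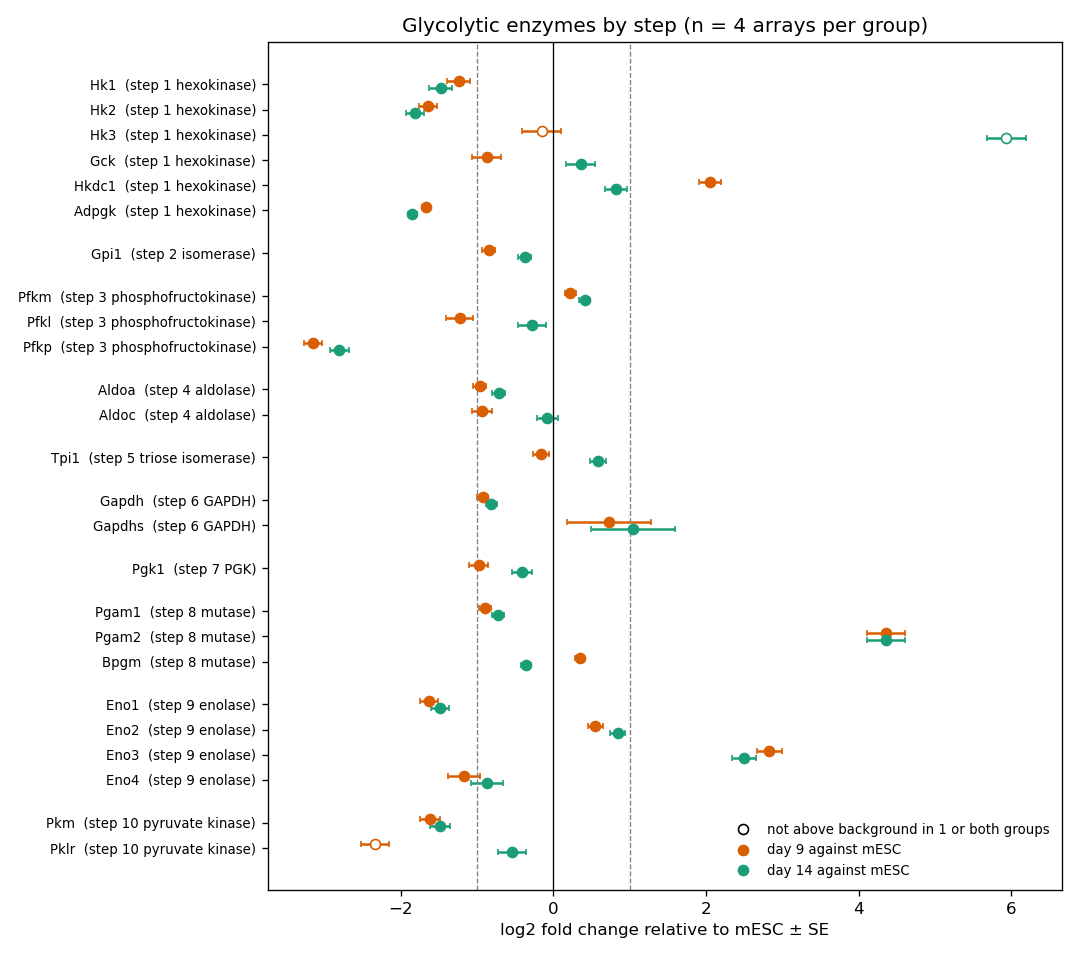
Log2 change against mESC, with standard error, of glycolytic enzymes, in pathway order from hexokinase to pyruvate kinase, at day 9 (orange) and day 14 (green). Open points have a group below background and are no measure of size. Pgam2 and Eno3 stand apart from the other forms of their steps, and most filled points lie between -2 and 1.

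Of 10 other hexose transporter genes tested, 4 were higher and 4 lower at day 9, and 5 were higher and 4 lower at day 14 (41% and 46.9% of all genes called). Slc2a10 and Slc2a13, the gene of a proton-coupled inositol transporter, were below background in mESC. Slc2a13 was at least 6.47-fold higher at day 9 and at least 15.2-fold higher at day 14, and Slc2a10 at least 6.01-fold and 7.26-fold higher. Slc2a5, the fructose transporter, was lower, with log2 changes of -2.71 ± 0.10 at day 9 and -4.17 ± 0.10 at day 14. Slc5a1, a sodium-coupled glucose transporter, was at least 5.16-fold lower at day 14. At day 9 its probe was well above background on 1 of 4 arrays, so its log2 change of -2.47 ± 0.95 (limma, adjusted p = 0.031) is not a measure of size, and a second probe gave -4.11. Between the days, 2 of the 10 were higher at day 14 and 1 was lower (13.8% of all genes called).

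Downstream of glycolysis, 15 genes of pyruvate and lactate use were tested, of which 2 were higher and 5 lower at day 9, and 3 higher and 5 lower at day 14. These 7 and 8 of 15 lie near the 41% and 46.9% called among all genes. Ldhc, the lactate dehydrogenase of germ cells, was at least 111-fold lower at day 9 and at least 135-fold lower at day 14. Slc16a7, a monocarboxylate transporter, was at least 2.50-fold and 7.89-fold higher. Pdha1, a subunit of pyruvate dehydrogenase, was lower, with log2 changes of -1.93 ± 0.05 and -1.85 ± 0.05, while a second probe of it gave -0.67 and -0.53. Pdk4, a kinase that inhibits that enzyme, was lower, with a log2 change of -1.73 ± 0.22 at day 9. From day 9 to day 14 Pdk4 was higher by 1.25 ± 0.22. Pdk1 was higher than in mESC by 1.79 ± 0.13 at day 14. Among 11 regulators and gluconeogenic enzymes, none was called higher at either day against mESC by limma (2 and 1 were higher at an unadjusted p under 0.05), and 5 were lower at day 9 and 4 at day 14. Of all genes, 20% and 22.8% were called higher, and 21% and 24.1% lower, at day 9 and day 14. Fbp2, the muscle form of fructose bisphosphatase, was at least 102-fold lower at day 9 and lower, with a log2 change of -6.11 ± 0.09 at day 14. Tigar, which lowers fructose 2,6-bisphosphate, was lower, with log2 changes of -4.48 ± 0.09 and -4.94 ± 0.09.

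For each of the 10 genes, the named genes with the most similar profile were found by the root mean square (RMS) difference of centred log2 levels over the 12 arrays, among 15553 genes. This is a description, and the arrays that set it are those tested above. The nearest to Pgam2 was Cacna1h, a T-type calcium channel gene, at an RMS difference of 0.19, followed by Actn2, a Z-disc gene, and Gabrb2. Eno3 was followed most closely by Slc6a13 at 0.10, then Hey1 and Mmd. Slc2a4 had Grik5 at 0.07, then Phf2 and Cacfd1.

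For the genes that were lower, Eno1 was followed by Ggnbp1 at 0.07, Pkm, the pyruvate kinase of most tissues, at 0.08, and Ddhd1. Pkm itself was lower, with log2 changes of -1.62 ± 0.13 at day 9 and -1.49 ± 0.13 at day 14, beside -1.63 and -1.48 for Eno1. Hk1 was followed by Idh3a, a subunit of a citric acid cycle enzyme, at 0.10, then Acsl1 and Pip5k1b, and Hk2 by Cfap298 at 0.09, Nr4a1 and Lpin1. Slc2a3 had Ccdc88c at 0.07, then Ell3 and Pla2g4b. Of the genes not called, Pgam1 had Gm5069 at 0.04, 3000002C10Rik at 0.06 and Aldoa, the aldolase of muscle and most other tissues, at 0.07. Slc2a1 was nearest to Ppp2r5d at 0.05, Cep19 and Arl6ip4, and Pfkm to Ap5s1 at 0.05, Etfrf1 and Mdh1.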

How the data were processed

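Total RNA of 12 samples, 4 per group, was turned into cRNA labelled with Cy3 and hybridised to Agilent arrays in 1 colour, per the labels' protocols. The authors extracted each array with Agilent Feature Extraction 12, per the submitters' processing notes, and deposited the processed signal, an intensity after background subtraction that was not scaled between arrays, per the file headers. The deposited median and local background signals are uncorrected intensities, per the file headers, and the other columns used are 0 or 1 flags. The deposited series table held the same intensity values, with 0 differences.

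Each array had 43379 non-control spots of 41174 probes, of which 28223 were named through RefSeq accessions in a GRCm38.p6 annotation and 12951 were not. Outlier-flagged spots were left out, and spots of a probe were averaged. The log2 processed signal was reduced by the array's 75th percentile over non-control spots, which was 345.9 to 386.2 in mESC, 395.1 to 438.4 at day 9 and 463.4 to 507.7 at day 14. No depth exists for arrays, and their number limits the precision. A probe was tested if well above background on at least 3 of 4 arrays of a group, and the brightest tested probe stood for a gene. Tests were two-sided and used limma 3.58.1 in R 4.3.3 over all 12 arrays, with Benjamini-Hochberg adjustment over 20875 genes. The steps were tested on simulated data.

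Named were the 10 genes, the 3 genes most like each, and of each pathway list up to 4 called genes with the largest change. The text gives part of these, and 1 gene is not reported here. Genes and lists were chosen with earlier results of these data known. Sample numbers are shared between groups, but deviations of same-numbered samples correlated at only -0.08 to 0.18, so they were not treated as pairs. Day 14 replicates 1, 2 and 3 did correlate best with the day 9 sample of the same number, at 0.18, 0.04 and 0.03. Against mESC, only day 9 replicate 1 and day 14 replicate 4 did so. Alternatives were normexp with an offset of 50 on the median signal (no mean signal column was used), median scaling, quantile normalization, the deposited series table, testing without the filter or with probes above background everywhere, averaging a gene's probes, fitting only the 8 arrays of a comparison, a trended robust prior, adjusted p alone, a replicate block, each array left out and, chosen after seeing the data, the percentile over probes.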

Additional observations from a re-analysis of the deposited data

Results flagged for a closer look

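Of 45 sets of 4 values, 1 had a sample far from the others: Eno3 in mESC, where replicate 3 had a log2 level of 1.30 and the others lay between 1.16 and 1.18. About 1 set in 20 would be marked by chance. All 4 values lie far below the Eno3 levels of both later days.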

How the results depend on the processing

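Of 720 values of the 10 genes' changes under alternatives, 707 stayed on the same side of the threshold, 6 lost a call and 7 gained one with adjusted p alone. No call was reversed, but 11 of the 707, uncalled values of Slc2a1 at day 14, and of Slc2a4, Pgam1, Pgam2 and Eno1 between the days, turned sign. Of 300 values of the gene pairs, 298 kept their direction and side. Part of these 720 and 300 values could not change. The series table held the same values as the array files, and adjusted p alone left the pairs as they were. Median scaling and the percentile over probes cancel in a ratio of 2 genes on the same array. The genes called at day 9, at day 14 and between the days were 4760, 5849 and 1232 with normexp, 5483, 6430 and 1305 with probes above background on all arrays (fewer genes tested), and 17402, 17769 and 13219 by adjusted p alone (no minimum size). In that order, the glycolysis list had 5, 3 and 2 called with probes above background on all arrays, 16, 15 and 15 by adjusted p alone, and 3 between the days with normexp. Of the 10 genes, the number called lower between the days was 0 with quantile normalization and with the percentile over probes, 2 by adjusted p alone (1 was then higher), and 0 to 1 with an array left out. Leaving out an array gave 8544 to 8631, 9755 to 9803 and 2839 to 2924 genes called, and 8 to 11, 5 to 6 and 5 to 6 of the glycolysis list. With a replicate block 8564, 9783 and 2876 genes were called and no call of the 10 genes changed. The pairs' weaker values were 0.13 for Hk1 and Hk2 at day 14 (mean over probes) and 0.54 for Slc2a1 and Slc2a3 between the days (normexp). Exact permutation of a pair over 4 against 4 arrays cannot go below p = 0.0286. The median change of all genes moved to 0.10 at day 14 and 0.16 between the days with normexp, and to -0.42 and -0.26 with median scaling, which gave 60.5% of calls between the days as higher, against 73.8%. The cause of these shifts was not tested.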

Other observations

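Glycogen genes, which the sections above do not cover, were mostly higher after differentiation. Of 15 tested, 9 were higher and 3 lower at day 9 (41% of all genes called), and 10 were higher and 3 lower at day 14 (46.9% of all genes called). Stbd1, which ties glycogen to membranes, was higher by 6.66 ± 0.17 on the log2 scale at day 9 and 6.04 ± 0.17 at day 14. Gyg, the primer protein of glycogen synthesis, was higher by 3.52 ± 0.19 and 2.31 ± 0.19, and it was lower at day 14 than at day 9, with a log2 change of -1.21 ± 0.19. Pygm, the muscle glycogen phosphorylase, was higher by 2.89 ± 0.31 at day 14. Phkg1, a phosphorylase kinase subunit of muscle, was at least 9.53-fold lower at day 9 and at least 11.6-fold lower at day 14. Gys2, the liver glycogen synthase, was at least 1.35-fold and 1.95-fold higher. Hepatocyte and visceral endoderm markers moved with it: 7 of 8 were higher at each day, with sums of 0.167 to 0.256 in mESC, 39.1 to 66.0 at day 9 and 192.9 to 208.2 at day 14. Of these, Afp, Ttr, Apoa1, Fgb and Fga were not above background in mESC, nor was Fga at day 9. Fga is among those called higher at day 9, and with both groups below background that call is no measure of a rise. Markers of cardiac muscle (10 of 10), smooth muscle (5 of 6), fibroblasts (7 of 8) and endothelium (6 and 5 of 7) were also higher at both days. The part of any of these cell types in the Gys2 result was not tested.

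Of 15 genes of GLUT4 trafficking and insulin signalling, 4 were higher and 0 lower at day 9 by limma (4 were lower at an unadjusted p under 0.05), and 4 were higher and 2 lower at day 14. Of all genes, 20% and 22.8% were called higher, and 21% and 24.1% lower, at day 9 and day 14, and the 4 of 15 higher lie near that share. Irs1, an adaptor of the insulin receptor, was higher by 5.94 ± 0.07 and 6.07 ± 0.07, while a second probe gave 2.93 and 3.08. Akt1, a kinase of insulin signalling, was higher by 2.34 ± 0.05 and 2.57 ± 0.05, and Vamp2, a vesicle fusion protein, by 1.13 ± 0.05 and 1.05 ± 0.05. Sort1, a sorting receptor of GLUT4 vesicles, was higher by 3.06 ± 0.07 and 2.76 ± 0.07, but its 4 probes ranged from -0.08 to 3.06 at day 9. Among 16 transcription factors tied to these genes in other work, 6 were higher and 2 lower at each day (41% and 46.9% of all genes called). The 6 higher ones were Mef2c, Myc, Mef2a, Ppargc1a, Thra and Epas1. Mef2c, a factor of muscle and heart, was below background in mESC and at least 71.0-fold higher at day 9 and at least 63.9-fold higher at day 14. Myc, a growth regulator, was higher by 3.97 ± 0.09 and 3.71 ± 0.09 on the log2 scale, and its 3 probes ranged from 2.10 to 3.97 at day 9. At day 9 the log2 change was 2.49 ± 0.07 for Mef2a, 2.19 ± 0.23 for Ppargc1a, 2.16 ± 0.06 for Thra and 1.55 ± 0.12 for Epas1. A second probe of Ppargc1a gave 7.09, and the 3 probes of Mef2a ranged from 1.25 to 2.49. Mlxipl (ChREBP), a glucose-responsive factor, was lower, with log2 changes of -4.19 ± 0.10 and -3.50 ± 0.10, and Klf15, which raises Slc2a4 in other work, was lower, with log2 changes of -3.19 ± 0.19 and -3.67 ± 0.19.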
